A study of Mus musculus with 8 samples.

Results

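The zinc-handling genes Mt1, Mt2, Mtf1, Slc30a1, Slc30a10, Slc39a4, Slc39a8 and Slc39a14 were followed in whole mouse liver after deletion of Usp39, a splicing factor of the U4/U6.U5 tri-snRNP. The members were the rows of the deposited gene table that carry these 8 symbols, which makes 8 of 55385 gene identifiers. The data were bulk RNA-seq of liver from 4 Usp39-HKO mice (A469, A470, A471 and A474) and 4 control littermates (A468, A472, A473 and A475), with 1 library per mouse. All 8 mice were males of 5 weeks on the C57BL/6J background, and all were fasted for 16 h before the liver was taken. Usp39-HKO mice carried Usp39 fl/fl alleles with loxP sites around exon 2 and an Albumin-Cre transgene, which is active in hepatocytes, whereas the genotype of controls is given as WT. The comparison asks how hepatocyte deletion of Usp39 changes the transcripts of these genes in a fasted liver.

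Metallothioneins are small cysteine-rich proteins that bind zinc and copper in the cytosol and buffer the free metal. When zinc is plentiful, the transcription factor Mtf1 binds metal response elements, short motifs in front of the metallothionein genes and Slc30a1, and turns these genes on. Transporters of the ZnT family (Slc30a genes) move metal out of the cytosol, and those of the ZIP family (Slc39a genes) move it in. The liver is a main site of metallothionein synthesis, which glucocorticoids, interleukin-6 and fasting also induce, and hepatocytes take up zinc during an acute phase response through Slc39a14.

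The counted libraries held 8589636 to 10418450 reads per mouse, so that 3 counts, the upper limit that a count of 0 allows, correspond to 0.288 to 0.349 CPM. Levels are given as FPKM, that is, counts scaled by the merged exon length of the gene and by the total count of the library. Fold changes are from edgeR on the counts after TMM scaling, which removes a shift common to most genes: on the log2(FPKM + 1) scale the median difference over the tested genes, Usp39-HKO less control, was 0.17. All 8 members passed the filter of 0.5 FPKM in 4 or more mice, which 14340 genes passed. Usp39 itself was 9.58 ± 0.71 FPKM in controls and 8.44 ± 0.29 in Usp39-HKO (SD, n = 4 each), without overlap between the genotypes. Its log2 fold change was -0.41 (SE 0.11, adjusted p = 0.021). Reads from exons other than the deleted exon 2 and from non-parenchymal cells are part of this value. The defining hepatocyte marker list summed to 14460 to 16440 FPKM in controls and 12670 to 17390 FPKM in Usp39-HKO. After TMM scaling 2 of these 6 markers fell and the median log2 fold change was -0.32, beside the members' median of -0.46. Cyp2e1, a pericentral cytochrome P450, fell by 0.70 (SE 0.20, edgeR adjusted p = 0.029), and Serpina1c, of the multicopy alpha-1-antitrypsin family, fell by 0.80 (SE 0.21, adjusted p = 0.021). The part of hepatocyte content in the member levels was not tested. Control A475 held RNA of pancreatic acinar cells, whose 13 markers summed to 699 FPKM there and to between 3.18 and 5.399 FPKM in the 7 other mice. The Usp39-HKO mouse A469 had the lowest median correlation with its mates (r = 0.9645) and the lowest sample weight (0.487). Neither value set it far apart, as A474 had r = 0.9675 and control A472 had a weight of 0.552. A469 was also the highest mouse for Mt1 and Slc39a14, and the results that rest on it are given with and without it. As these levels helped to single it out, an adjusted p without A469 is a description and not a test of those genes.

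The promoters of Mt1, Mt2, Slc30a1 and Slc30a10 are shown because they hold the core of the metal response element to which Mtf1 binds. The sequences are from RefSeq on GRCm38.p6, 5′ to 3′ along the gene, from 250 bases before the RefSeq start to 30 bases after it. Capitals mark the 7-letter cores TGCACNC and TGCGCNC on either strand, where N is any base.
Mt1, chr8:94178839-94179118, plus strand: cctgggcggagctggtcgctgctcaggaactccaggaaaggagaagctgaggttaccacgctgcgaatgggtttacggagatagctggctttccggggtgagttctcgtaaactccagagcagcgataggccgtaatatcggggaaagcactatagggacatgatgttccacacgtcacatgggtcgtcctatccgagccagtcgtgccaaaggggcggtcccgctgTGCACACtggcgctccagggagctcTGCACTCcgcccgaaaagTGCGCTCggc
Mt2, chr8:94172368-94172647, plus strand: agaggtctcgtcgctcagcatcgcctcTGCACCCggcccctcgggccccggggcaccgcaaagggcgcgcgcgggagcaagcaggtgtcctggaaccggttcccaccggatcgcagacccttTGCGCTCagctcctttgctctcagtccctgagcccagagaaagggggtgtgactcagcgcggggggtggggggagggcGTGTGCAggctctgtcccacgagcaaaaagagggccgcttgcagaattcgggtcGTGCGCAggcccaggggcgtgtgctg
Slc30a1, chr1:191906531-191906810, plus strand: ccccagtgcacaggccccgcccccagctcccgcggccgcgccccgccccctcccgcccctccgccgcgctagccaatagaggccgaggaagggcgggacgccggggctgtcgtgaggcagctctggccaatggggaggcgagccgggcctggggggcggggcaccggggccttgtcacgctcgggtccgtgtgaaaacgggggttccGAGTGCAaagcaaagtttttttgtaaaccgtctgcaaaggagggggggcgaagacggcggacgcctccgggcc
Slc30a10, chr1:185454598-185454877, plus strand: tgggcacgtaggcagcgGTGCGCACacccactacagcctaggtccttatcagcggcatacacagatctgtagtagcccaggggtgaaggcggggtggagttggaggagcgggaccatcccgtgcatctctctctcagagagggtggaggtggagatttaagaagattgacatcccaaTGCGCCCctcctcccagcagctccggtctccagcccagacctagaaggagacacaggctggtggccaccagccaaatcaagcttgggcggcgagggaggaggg

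The search covered 300 bases of each promoter, to 50 bases after the start. Mt1 held 3 cores, of which 1 lies 23 to 17 bases before the RefSeq start and the others begin 3 and 21 bases after it. These positions hold for the 1 RefSeq start searched, and the starts of its 3 annotated transcripts were not searched separately. Mt2 held 4 cores. The printed bases of Mt2 end at 94172647, before the start of the annotated gene at 94172664, so its RefSeq start lies upstream of that start. Slc30a1 held 2 cores, of which the second, 31 bases after the start, lies beyond the printed bases. Slc30a10 also held 3 matches, but 2 of them overlap on opposite strands at 233 and 232 bases before the start. Of the 2 RefSeq starts of Slc39a8, 1 held no core and the other held 1, and the Mtf1 promoter held no core. Among 32851 mouse promoters of the same length, 25.7% held at least 1 core, 7.11% at least 2, 1.97% at least 3 and 0.518% at least 4. RefSeq promoters were matched for 6 of 8 members, and none was given here for Slc39a4 and Slc39a14. A match is a description of the letters and not a measured binding site.

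In controls Mt1 was by far the most abundant member, and Mtf1 was the least. Ordered by mean FPKM in controls, Mt1 (341) was followed by Slc39a4 (25.7), Slc39a14 (24.3), Mt2 (15.1), Slc30a1 (14.4), Slc30a10 (9.33), Slc39a8 (5.88) and Mtf1 (2.32). The ranges of Slc39a4, Slc39a14, Mt2 and Slc30a1 overlapped between neighbours in that order, and those of the other neighbours did not. In Usp39-HKO the order was the same except that Slc30a1 (18.4) stood above Mt2 (12.0), and Slc30a10 (5.51) no longer stood clear of Slc39a8 (5.14). By mean FPKM over all mice Mt1 was at percentile 98.9 of the tested genes, Slc39a4 at 89.1, and Mtf1 at 36.2. The 5 member transporters together summed to 74.5 to 86.6 FPKM in every liver, while Mt1 and Mt2 together ranged from 155 to 526 FPKM.

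**Figure D1:**
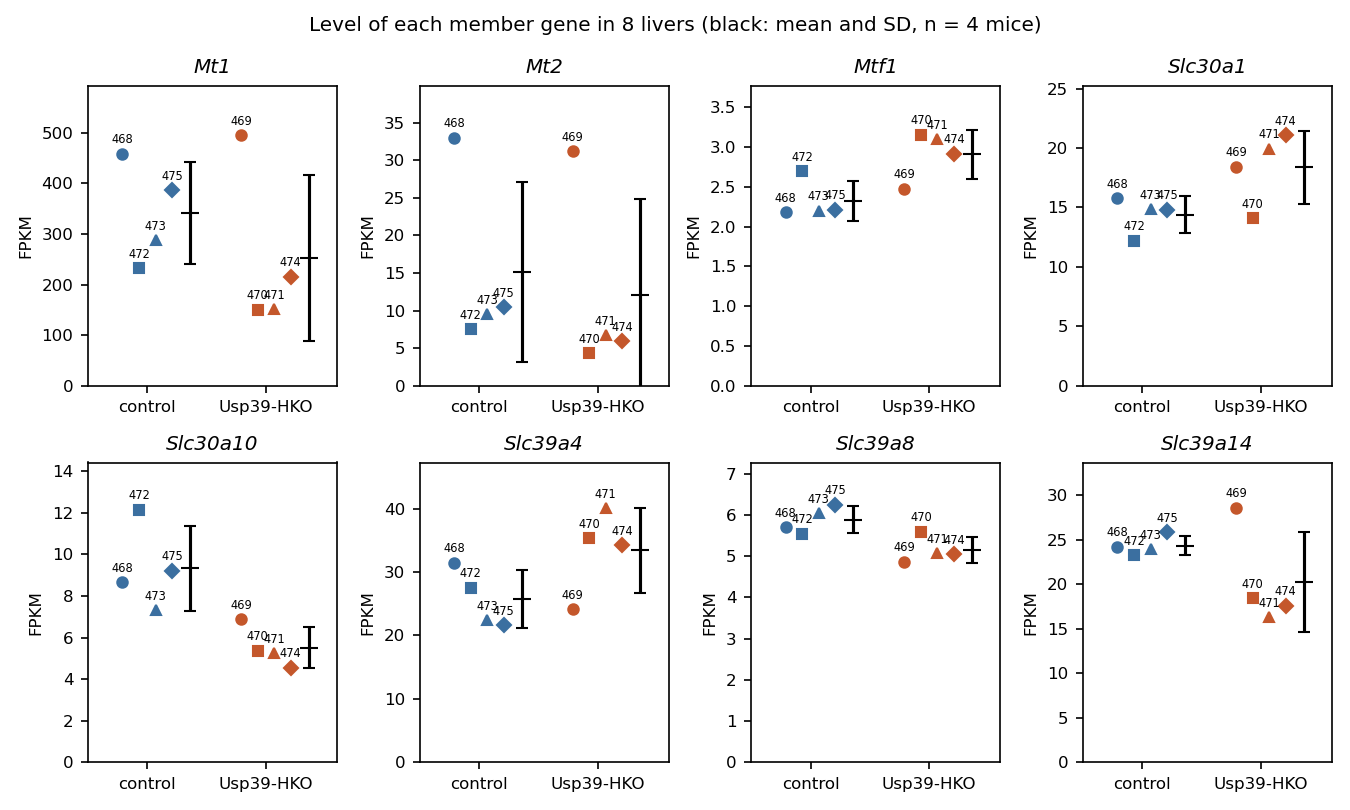
FPKM of the 8 member genes in each liver, with controls in blue and Usp39-HKO in orange, mouse numbers beside the points (shown without the letter A), and the mean and SD of 4 mice in black; each y axis starts at 0, where the SD bar of Mt2 in Usp39-HKO is cut. The genotypes do not overlap for Slc30a10, with Usp39-HKO lower, whereas A468 and A469 stand above their mates for Mt2.

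Over all 8 livers, 2 of 8 members fell in Usp39-HKO, the manganese exporter Slc30a10 and the ZIP importer Slc39a8. In the edgeR test, 0 of 8 were higher at an adjusted p under 0.05, 0 at an unadjusted p under 0.05, and DESeq2 also called 0 higher. Among all 14340 tested genes, 11.6% were lower and 10.9% were higher at an adjusted p under 0.05. The median log2 fold change of the 8 members was -0.46, beside -0.0015 for all tested genes, and 3 of the 8 were above 0. In FPKM, the highest Usp39-HKO mouse lay below the lowest control for 1 of 8 members, Slc30a10, beside 4.81% of tested genes. The lowest Usp39-HKO mouse lay above the highest control for 0 of 8 members, beside 23.9% of tested genes. After TMM scaling the Usp39-HKO mice were all below for 2 members, Slc30a10 and Slc39a8, beside 13.0% of tested genes, and above for none, beside 11.8%. Without the Usp39-HKO mouse A469, 5 of 8 members were lower at an adjusted p under 0.05: Mt1, Mt2, Slc30a10, Slc39a8 and Slc39a14. In that fit 11.6% of all tested genes were lower. With libraries weighted by quality (limma voom), 4 were lower, namely Mt1, Slc30a10, Slc39a8 and Slc39a14, beside 15.2% of tested genes. In bulk liver, fewer cells of a type and less RNA per cell cannot be told apart.

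**Figure D2:**
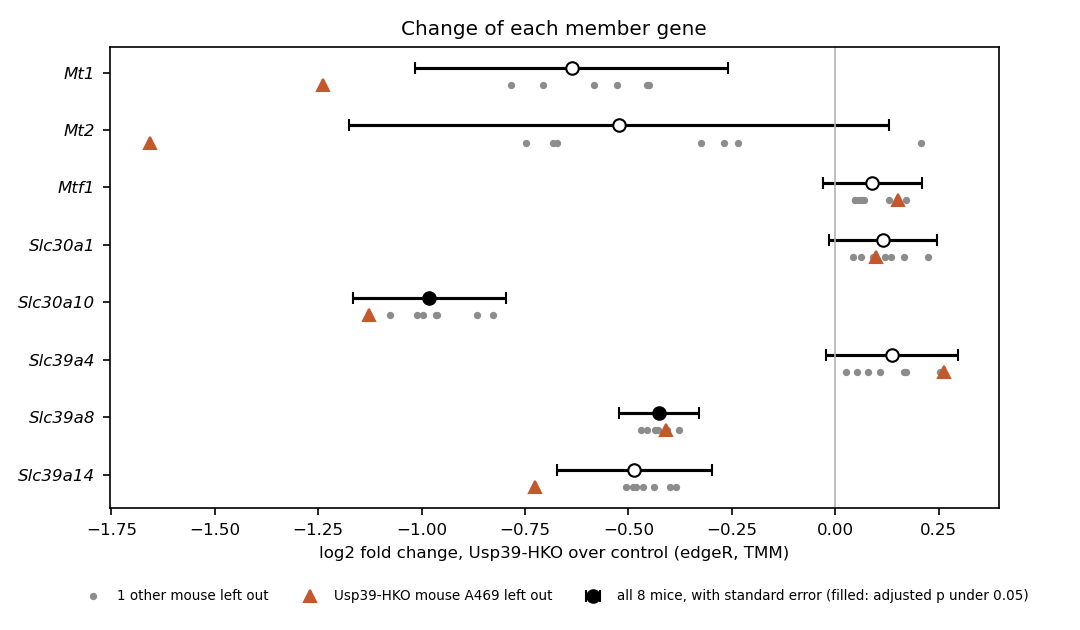
Log2 fold change of each member, Usp39-HKO over control, by edgeR with its standard error (circles, filled where the adjusted p is under 0.05), with the same value when another mouse is left out (grey) or when Usp39-HKO mouse A469 is left out (orange triangles). Slc30a10 and Slc39a8 stay within a narrow range below 0, while Mt1, Mt2 and Slc39a14 move to -1.24, -1.66 and -0.73 without A469.

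Mt1 is encoded on chromosome 8 (GRCm38 chr8:94179082-94180327, plus strand), 5513 bases downstream of Mt2, in the same direction. Its level was 459, 232, 288 and 386 FPKM in controls A468, A472, A473 and A475. Usp39-HKO mice A469, A470, A471 and A474 had 495, 151, 152 and 215 FPKM. Mouse A469 had the highest Mt1 of all 8 livers, and the 3 other Usp39-HKO mice lay below every control. The means were 341 ± 101 and 253 ± 164 FPKM (SD, n = 4 each), and the log2 fold change was -0.64 (SE 0.38, edgeR adjusted p = 0.26). By a two-sided exact permutation test on FPKM, whose smallest possible value with 4 against 4 mice is 0.029, p was 0.37. Without A469 the mean of the 3 remaining Usp39-HKO mice was 173 ± 37.1 FPKM, and the log2 fold change was -1.24 (adjusted p = 0.0022). This leaves out the highest value of Mt1 itself. With any other mouse left out the edgeR adjusted p was 0.19 to 0.49. The counts behind these levels were 1804 to 5991 per mouse. The deposited length of 1246 bases is that of all exons merged, and the longest of the 3 annotated transcripts has 1085 bases, so that the FPKM of Mt1 is understated for every transcript alone.

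Mt2 (chr8:94172664-94173568, plus strand) was 33.0, 7.55, 9.50 and 10.5 FPKM in controls A468, A472, A473 and A475. The level in Usp39-HKO was 31.2, 4.34, 6.77 and 5.92 FPKM in A469, A470, A471 and A474. A single mouse in each genotype was thus far above its mates, A468 among controls and A469 among Usp39-HKO. The means were 15.1 ± 12.0 and 12.0 ± 12.8 FPKM (SD, n = 4 each), and the log2 fold change was -0.52 (SE 0.65, edgeR adjusted p = 0.61). The two-sided exact permutation p was 0.46. Without A469 the log2 fold change was -1.66 (adjusted p = 0.031), and without the control A468 it was 0.21 (adjusted p = 0.86), so that the direction for Mt2 rests on single mice. Mt2 rested on 26 to 178 counts per mouse. Of its 588 exon bases, 73.5% overlap exons of the antisense gene Gm45774, which had 2 to 10 counts per mouse. The counting is not stated to use strand, and how reads in exons of both genes were treated is not given. If such reads were left out, the level and rank of Mt2 would be understated. The ratio of Mt1 to Mt2 would then be overstated, and this was not tested.

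The metallothionein levels varied more among mice of the same genotype than those of most genes. The SD within a genotype, on the log2(FPKM + 1) scale, was 0.65 for Mt1 and 1.04 for Mt2, at percentiles 96.6 and 99.4 of the tested genes, whose median was 0.18. Slc39a8, at 0.070, was at percentile 1.72, and Mtf1, at 0.11, was at percentile 13.4. The ratio of Mt1 to Mt2 FPKM was 13.9 in A468 and 15.9 in A469, and between 22.4 and 36.9 in the 6 other livers. A468 and A469, the mice with the highest metallothionein sums, therefore had proportionally more Mt2. The other livers did not follow this order. A475, next with a sum of 396 FPKM, had the highest ratio of all, 36.9. The ratio averaged 28.0 ± 9.8 in controls and 27.3 ± 9.9 in Usp39-HKO (SD, n = 4 each, two-sided exact permutation p = 0.91). Mt3 and Mt4, the metallothioneins of brain and of squamous epithelium, had 0 counts in all 8 libraries.

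Mtf1 (chr4:124802104-124849800, plus strand), the zinc-sensing transcription factor of the metallothionein promoters, was 2.177, 2.696, 2.196 and 2.209 FPKM in A468, A472, A473 and A475. In Usp39-HKO it was 2.47, 3.15, 3.10 and 2.91 FPKM in A469, A470, A471 and A474. The Usp39-HKO mice were higher in FPKM except that A469 lay below the control A472. The means were 2.32 ± 0.25 and 2.91 ± 0.31 FPKM (SD, n = 4 each, two-sided exact permutation p = 0.057). After TMM scaling the difference was small, with a log2 fold change of 0.09 (SE 0.12, edgeR adjusted p = 0.64). Its exons overlap those of 1110065P20Rik on the other strand over 8.10% of their length, and that gene had 57 to 104 counts per mouse beside 168 to 286 for Mtf1.

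Slc30a1 (ZnT1, chr1:191906767-191913247, plus strand), the plasma membrane zinc exporter and a classical Mtf1 target, was 15.8, 12.2, 14.9 and 14.8 FPKM in controls A468, A472, A473 and A475. Usp39-HKO mice A469, A470, A471 and A474 had 18.42, 14.08, 19.95 and 21.1 FPKM. The groups overlapped through A470, the lowest Usp39-HKO mouse. The means were 14.4 ± 1.5 and 18.4 ± 3.1 FPKM (SD, n = 4 each, two-sided exact permutation p = 0.11), and the log2 fold change after TMM scaling was 0.12 (SE 0.13, edgeR adjusted p = 0.57). In A468 and A469, the mice with the highest Mt1 and Mt2, Slc30a1 was at 15.8 and 18.4 FPKM. For Slc30a1 A468 was the highest control, and A469 lay within the range of the other Usp39-HKO mice. A link between these levels was not tested.

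Slc30a10 (ZnT10, chr1:185454848-185468762, plus strand) exports manganese from hepatocytes and enterocytes, and loss of the human gene causes manganese overload. It was 8.65, 12.2, 7.32 and 9.20 FPKM in controls A468, A472, A473 and A475. The level in Usp39-HKO was 6.89, 5.37, 5.23 and 4.56 FPKM in A469, A470, A471 and A474. Every Usp39-HKO mouse lay below every control, with A469 the closest. The means were 9.33 ± 2.04 and 5.51 ± 0.99 FPKM (SD, n = 4 each), with a two-sided exact permutation p of 0.029, the smallest this design can give. Slc30a10 fell by 0.98 on the log2 scale (SE 0.19, edgeR adjusted p = 0.0043), to 0.506 of the control level. With each mouse left out in turn the log2 fold change was between -1.13 and -0.83, with an adjusted p of 0.0011 to 0.015. It rested on 281 to 784 counts per mouse. Its exons overlap those of Gm2061 on the other strand over 9.13% of their length, and Gm2061 had 21 to 41 counts in controls and 2 to 13 counts in Usp39-HKO.

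Slc39a4 (ZIP4, chr15:76612383-76617384, minus strand) is the zinc importer of the intestine. In liver it was 31.5, 27.5, 22.4 and 21.6 FPKM in controls A468, A472, A473 and A475. In Usp39-HKO it was 24.1, 35.4, 40.0 and 34.3 FPKM in A469, A470, A471 and A474. In FPKM A469 lay within the controls and the 3 other Usp39-HKO mice above them. After TMM scaling A470 (32.6) and A474 (28.8) lay below control A468 (34.5), and only A471 (37.6) was above every control. The means were 25.7 ± 4.6 and 33.4 ± 6.7 FPKM (SD, n = 4 each, two-sided exact permutation p = 0.11), and the log2 fold change was 0.14 (SE 0.16, edgeR adjusted p = 0.58). The 5 listed enterocyte markers summed to 445 to 719 FPKM in controls against 502 to 831 FPKM in Usp39-HKO. Nearly all of this came from Fabp2 (72.8 to 160 FPKM) and Apoa4 (350 to 671 FPKM), which liver also expresses. Of the other markers, Alpi, intestinal alkaline phosphatase, had 0 counts in all mice, and Lct, lactase, had 0 to 3 counts. Vil1, villin, was below the filter, with 1 to 4 counts in controls and 4 to 25 in Usp39-HKO. It was 0.031 to 0.11 FPKM in controls and 0.12 to 0.74 FPKM in Usp39-HKO. After TMM scaling the groups overlapped, with control A475 at 0.115 and A469 at 0.1145. The part of such cells in the Slc39a4 level was not tested.

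Slc39a8 (ZIP8, chr3:135825279-135888572, plus strand), which imports manganese and zinc at the hepatocyte surface, was 5.70, 5.54, 6.05 and 6.25 FPKM in controls A468, A472, A473 and A475. Usp39-HKO mice A469, A470, A471 and A474 had 4.86, 5.59, 5.07 and 5.05 FPKM. In FPKM only A470 reached into the control range, and after TMM scaling the controls (6.01 to 6.65) and the Usp39-HKO mice (4.25 to 5.15) did not overlap. The means were 5.88 ± 0.32 and 5.14 ± 0.31 FPKM (SD, n = 4 each), with a two-sided exact permutation p of 0.057 on FPKM and 0.029 after TMM scaling. Slc39a8 fell by 0.43 on the log2 scale (SE 0.10, edgeR adjusted p = 0.010), to 0.744 of the control level. This call depends on the scaling: without TMM factors, which moves the median of all genes to 0.24, the log2 fold change was -0.19 (adjusted p = 0.18).

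Slc39a14 (ZIP14, chr14:70303469-70351425, minus strand), which imports zinc, manganese and iron and is induced by interleukin-6, was 24.2, 23.3, 23.9 and 25.8 FPKM in controls A468, A472, A473 and A475. The level in Usp39-HKO was 28.6, 18.4, 16.3 and 17.6 FPKM in A469, A470, A471 and A474. The controls lay close together, A469 was above all of them, and the 3 other Usp39-HKO mice were below all of them. The means were 24.3 ± 1.1 and 20.2 ± 5.6 FPKM (SD, n = 4 each, two-sided exact permutation p = 0.14), and the log2 fold change was -0.49 (SE 0.19, edgeR adjusted p = 0.084). Without A469 the 3 Usp39-HKO mice averaged 17.4 ± 1.1 FPKM, and the log2 fold change was -0.73 (adjusted p = 0.0009). This leaves out the highest value of Slc39a14 itself. With any other mouse left out the edgeR adjusted p was 0.11 to 0.20. In A469 Slc39a14 was 1.64 times and Mt1 2.87 times the mean of the 3 other Usp39-HKO mice.

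The hormonal and inflammatory inducers of metallothioneins and Slc39a14 were read from listed genes, and A469 was the highest mouse in both lists. Over all the pathway lists read here, 13 of 60 tested genes (21.7%) were called in either direction, beside 22.5% of all tested genes. Without A469 the count was 22 of 60 (36.7%), beside 24.5%. Of 14 genes of the interleukin-6 and acute phase list, 1 rose and 2 fell, and the median log2 fold change was -0.039. Steap4, a metalloreductase for iron and copper, rose by 0.73 (SE 0.12, edgeR adjusted p = 0.0024), from 21.1 ± 1.6 to 41.4 ± 7.2 FPKM. Il6ra, the interleukin-6 receptor, fell by 1.04 (SE 0.20, adjusted p = 0.0050), and the acute phase protein Itih4 fell by 0.70 (SE 0.23, adjusted p = 0.049), both on the log2 scale. The call of Itih4 held in 1 of 8 fits with a mouse left out (adjusted p 0.0014 to 0.14), that without A469. The list sum was 8217 FPKM in A469, 5156 to 5818 in controls and 3590 to 4765 in the 3 other Usp39-HKO mice. Saa1, serum amyloid A, was 56.5 FPKM in A469, 7.82 to 27.0 in controls and 2.68 to 9.94 in the other Usp39-HKO mice. Without A469, 8 genes of this list were lower and 1 was higher, and the median was -0.84.

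The glucocorticoid list held 10 genes, and Nr3c1 among them encodes the receptor and is not one of the induced genes. Nr3c1 is nevertheless part of the counts, medians and means of this list, and its fall is not a reading of an induced gene. Of the 10, Tsc22d3 and Nr3c1 fell, and the median log2 fold change was -0.38. Without A469, 5 of the 10 were lower (Tat, Errfi1, Tsc22d3, Klf9 and Zbtb16), and the median was -0.61. Tsc22d3, the glucocorticoid-induced leucine zipper, was 39.3, 29.8, 35.4 and 40.4 FPKM in controls and 24.6, 17.7, 21.3 and 20.1 FPKM in A469, A470, A471 and A474. No Usp39-HKO mouse reached the lowest control, and Tsc22d3 fell by 1.02 on the log2 scale (SE 0.15, edgeR adjusted p = 0.0013). Nr3c1, the glucocorticoid receptor, fell by 0.33 (SE 0.11, adjusted p = 0.0496), a call that held in 1 of 8 fits with a mouse left out, that without the control A472 (adjusted p 0.013 to 0.14). The mean of the list, as log2 of TMM-scaled FPKM + 1, was 5.69 in A469, 5.49 to 5.56 in controls and 4.80 to 5.10 in the other Usp39-HKO mice. Slc39a14 showed the same order of A469, controls and other Usp39-HKO mice. A468, the control with the highest Mt1 and Mt2, had the lowest acute phase sum of the controls (5156 FPKM) and Saa1 at 7.82 FPKM. The part of these inducers in the metallothionein levels was not tested.

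**Figure D3:**
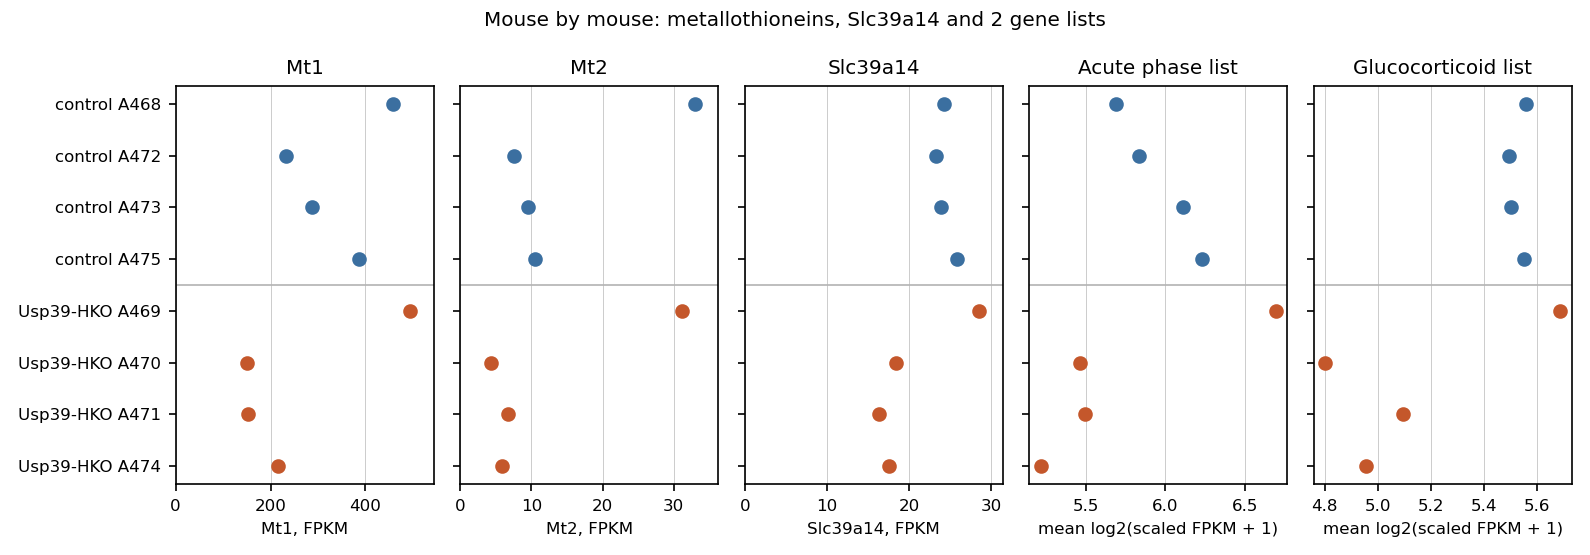
Mt1, Mt2 and Slc39a14 in FPKM (axes from 0), with 1 row per liver, controls in blue and Usp39-HKO in orange. The acute phase and glucocorticoid lists are shown as the mean log2(TMM-scaled FPKM + 1) (axes not from 0). A469 is highest for Mt1, Slc39a14 and both lists, with list means of 6.69 and 5.69, and A468 is high for the metallothioneins but lowest of the controls for the acute phase list, at 5.69.

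Among the other zinc transporters, 2 ZIP importers rose and 1 ZnT gene fell. Of 9 other ZIP genes tested out of 11, Slc39a5 and Slc39a11 were higher at an adjusted p under 0.05, and the median log2 fold change of the 9 was 0.22. Slc39a5, an importer of the basolateral membrane, was 0.979, 1.45, 0.994 and 1.12 FPKM in A468, A472, A473 and A475. In Usp39-HKO it was 3.10, 3.13, 1.98 and 6.92 FPKM in A469, A470, A471 and A474, all above every control. It rose by 1.46 on the log2 scale (SE 0.33, edgeR adjusted p = 0.0099). Slc39a5 is also a pancreatic gene. In control A475, which held pancreatic RNA, it was within the range of the other controls. The part of other cell types in the Slc39a5 level was not tested. Slc39a11 was 5.90 to 7.15 FPKM in controls and 8.27 to 11.6 FPKM in Usp39-HKO, and rose by 0.46 (SE 0.12, adjusted p = 0.018). With A468, A475 or A471 left out its adjusted p missed the threshold, reaching at most 0.058. Slc39a1, the most abundant ZIP transcript here, was 44.7 ± 2.4 and 49.8 ± 2.9 FPKM, with a log2 fold change of -0.08 after TMM scaling (SE 0.10, adjusted p = 0.64) and of 0.16 without it (adjusted p = 0.24).

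Of 8 other ZnT genes, 5 were tested, and Slc30a9, a mitochondrial zinc transporter, fell by 0.34 on the log2 scale (SE 0.11, edgeR adjusted p = 0.044). In FPKM its groups overlapped, with controls at 5.84 to 6.51 FPKM and Usp39-HKO at 4.56 to 6.66 FPKM. The median log2 fold change of the 5 was -0.10. The call of Slc30a9 held in 1 of 8 fits with a mouse left out, that without A470 (adjusted p 0.018 to 0.12), and not without TMM factors, where Slc30a4 was called higher. Slc30a4 was 3.93 ± 0.52 FPKM in controls and 6.19 ± 1.43 FPKM in Usp39-HKO, with a log2 fold change of 0.41 after TMM scaling (SE 0.15, adjusted p = 0.065). Slc30a2, Slc30a3 and Slc30a8 were below the filter, with 0 to 25 counts per mouse.

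**Figure D4:**
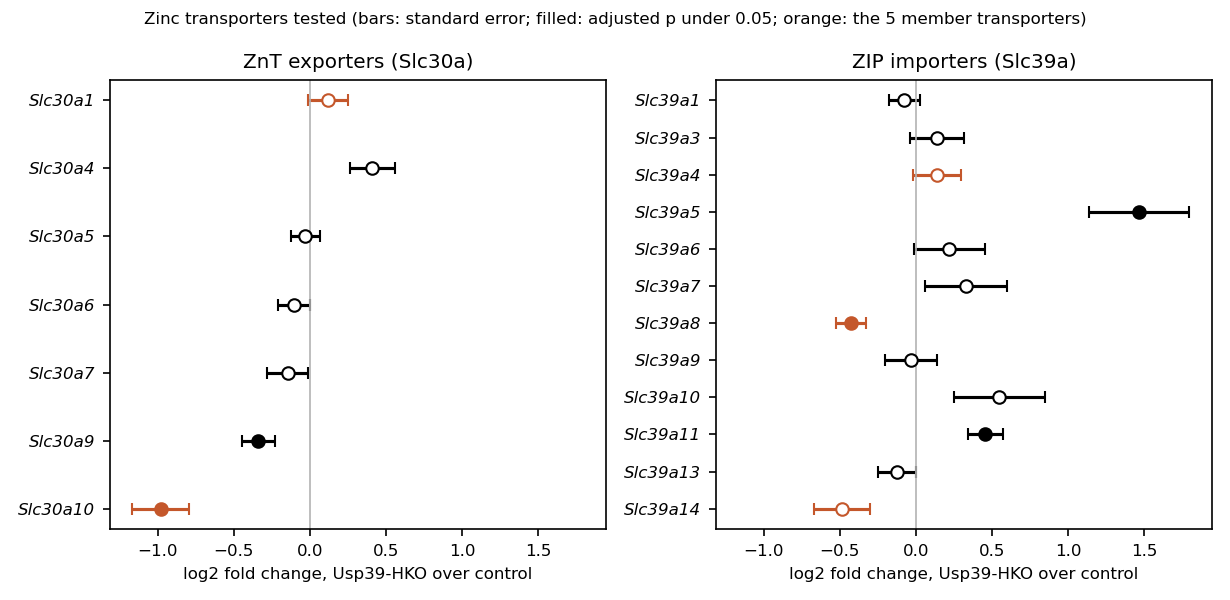
Log2 fold change, Usp39-HKO over control, of every ZnT gene (left) and ZIP gene (right) that was tested, with standard errors, filled where the adjusted p is under 0.05 and orange for the 5 member transporters. Slc39a5 at 1.46 and Slc30a10 at -0.98 lie at the ends of the range.

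Of 4 other reported Mtf1 targets, Csrp1, which encodes a cysteine-rich LIM protein, rose. Gclc, Selenow and Ndrg1 did not pass the test, and the median log2 fold change was 0.04. Csrp1 was 8.19, 9.64, 9.34 and 10.4 FPKM in controls A468, A472, A473 and A475. Usp39-HKO mice A469, A470, A471 and A474 had 20.5, 24.6, 23.9 and 27.3 FPKM, all above every control. It rose by 1.12 on the log2 scale (SE 0.10, edgeR adjusted p = 0.00023). Csrp1 is also a transcript of smooth muscle and stellate cells. The sum of the stellate cell markers was higher in Usp39-HKO, as given with the cell type markers. In A469, however, their mean log2(TMM-scaled FPKM + 1) was 2.13, within the controls at 1.75 to 2.22. The part of these cells in the Csrp1 level was not tested.

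Slc30a10, Slc39a8 and Slc39a14 also carry manganese, so genes that handle or use manganese were read beside them. Of 7 genes, 2 fell, and the median log2 fold change was -0.17. Glul, the manganese-dependent glutamine synthetase of pericentral hepatocytes, was 171, 240, 189 and 199 FPKM in controls A468, A472, A473 and A475. The level in Usp39-HKO was 174, 102, 109 and 75.8 FPKM in A469, A470, A471 and A474. In FPKM A469 thus lay within the range of the controls. After TMM scaling every Usp39-HKO mouse lay below every control, with A469 at 172 and the lowest control at 188. Glul fell by 1.004 on the log2 scale (SE 0.25, edgeR adjusted p = 0.015), and without A469 it fell by 1.30 (adjusted p = 0.00078). Atp2c1, a Golgi calcium and manganese pump, fell by 0.33 (SE 0.11, adjusted p = 0.045). Metallothioneins also bind copper, and of 11 copper-handling genes 2 fell, with a median of 0.06. Atp7b, which moves copper into bile, was 8.53 ± 0.28 and 7.31 ± 1.08 FPKM and fell by 0.46 (SE 0.10, adjusted p = 0.0097). Slc31a1, the copper importer CTR1, was 44.5 ± 3.5 and 37.3 ± 5.3 FPKM and fell by 0.49 (SE 0.11, adjusted p = 0.011). Without TMM factors Atp2c1, Atp7b and Slc31a1 were not called, and Atp2c1 kept its call in 3 of 8 fits with a mouse left out (adjusted p 0.041 to 0.12).

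Markers of other liver cells moved with genotype. The 5 cholangiocyte markers summed to 26.4 to 28.7 FPKM in controls and 64.1 to 285 FPKM in Usp39-HKO, and 4 of the 4 tested rose. Nearly all of these sums came from Spp1 (23.2 to 25.0 FPKM in controls and 59.8 to 263 FPKM in Usp39-HKO). In FPKM 3 of the 4 lay above every control in all Usp39-HKO mice. Sox9 did not, with A469 at 1.54 FPKM and controls at 1.34 to 2.11 FPKM. Spp1, osteopontin, rose by 2.32 (SE 0.31, edgeR adjusted p = 0.00092) and Epcam by 2.11 (SE 0.42, adjusted p = 0.0058) on the log2 scale. The 5 stellate cell markers summed to 12.5 to 18.1 FPKM in controls and 20.3 to 46.2 FPKM in Usp39-HKO, and 3 of 5 rose. Among them Col1a1, a collagen chain, rose by 1.70 (SE 0.30, adjusted p = 0.0033), and Acta2, smooth muscle actin, had a log2 fold change of 0.92 (SE 0.45, adjusted p = 0.17). The 5 Kupffer cell and macrophage markers summed to 249 to 300 FPKM in controls and 420 to 644 FPKM in Usp39-HKO, and 4 of 5 rose. Cd68, a lysosomal protein of macrophages, rose by 0.86 (SE 0.22, adjusted p = 0.018) and Cd5l by 0.75 (SE 0.14, adjusted p = 0.0036). The 5 erythroid markers summed to 369 to 771 FPKM in controls and 155 to 364 FPKM in Usp39-HKO, and 5 of 5 fell. Hbb-bt, a globin, fell by 1.76 (SE 0.38, adjusted p = 0.0083) and Alas2, the erythroid heme synthesis enzyme, by 1.72 (SE 0.31, adjusted p = 0.0037). The list sum of sinusoidal endothelial markers overlapped between the genotypes, yet 2 of 5 fell. Lyve1, a hyaluronan receptor, fell by 0.997 (SE 0.25, adjusted p = 0.016) with no overlap between genotypes, and Stab2, a scavenger receptor, fell by 0.37 (SE 0.12, adjusted p = 0.048). The sums of neutrophil and lymphocyte markers also overlapped, and none of the 3 tested in each list passed in edgeR or DESeq2, at an unadjusted p under 0.05 either. In A469 the cholangiocyte sum was 64.1 FPKM, the lowest of the Usp39-HKO mice. The part of these cells in the member levels was not tested.

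For each member, the genes whose levels were most alike over the 8 livers were named by the Pearson correlation of log2(FPKM + 1), among 12309 genes with a mean of at least 1 FPKM. These values describe 8 points that share genotype and library, and no p is given. Mt1 was most like Nr3c2, the mineralocorticoid receptor (r = 0.975), Foxo1, a fasting transcription factor (0.969), and Dock5 (0.968). Foxo1 was 10.5 FPKM in A469, 6.74 to 8.40 in controls and 5.13 to 6.11 in the other Usp39-HKO mice, the same order as Slc39a14. Mt2 was most like Map7 (0.944), the unnamed gene ENSMUSG00000104367 (0.925) and Slc25a16 (0.922). Slc39a14 was most like the ornithine aminotransferase Oat (0.988), the angiotensinogen gene Agt (0.982) and the urea cycle gene Asl (0.982). Oat was 722 FPKM in A469, 487 to 575 in controls and 341 to 371 in the other Usp39-HKO mice.

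Slc30a10 was most like the glycine transporter Slc6a9 (0.970), the pyruvate carboxylase gene Pcx (0.962) and Eva1a (0.961). Pcx was 270.4 to 327 FPKM in controls and 163 to 215 FPKM in Usp39-HKO. Slc39a8 was most like Rtp3 (0.990), the mitochondrial serine hydroxymethyltransferase Shmt2 (0.981) and Dtnb (0.981). Mtf1 was most like Grpel2 (0.988), Unc119b (0.983) and Gpx4 (0.982). Slc30a1 was most like Rab28 (0.989), Rnls (0.965) and Polr3f (0.963), and Slc39a4 was most like Anxa7 (0.975), Nup35 (0.970) and Rnf11 (0.965).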

How the data were processed

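RNA of 8 livers was extracted with TRIzol, and libraries were made with the NEB Next Ultra RNA kit and sequenced on an Illumina NovaSeq instrument. Per the labels and the study's methods, the authors used Trim Galore 0.6.1, FastQC 0.11.9, HISAT2 2.2.0 on mm10, samtools 1.9, Picard, featureCounts and DESeq2. How Picard was used is not given in the sources used here; removal of duplicate reads would lower short, abundant transcripts such as Mt1 most. The deposited table holds the authors' raw counts per gene and FPKM, along with their own DESeq2 results, which were not used. FPKM rebuilt from counts, deposited lengths and count totals differed by a relative 2e-07 at most. Of 55699 entries, 314 repeat an identifier with the same counts under another symbol and were dropped.

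Genes with at least 0.5 FPKM in 4 or more mice (14340) were tested with edgeR 4.0.16 (quasi-likelihood, TMM, R 4.3.3) and adjusted by Benjamini-Hochberg over all of them. TMM factors were 0.911 to 0.940 for the control libraries, 1.01 to 1.19 for Usp39-HKO. Single values were tested by exact two-sided permutation over 70 assignments (scipy 1.17.1). The fitting code was tested on simulated data. Counts behind each gene limit precision, and totals were 8589636 to 10418450. Mice of a genotype differed beyond sampling noise (chi-square per degree of freedom 6.4 to 32.9). Alternatives were DESeq2 1.42.0, median-ratio factors, no TMM, other filters, limma 3.58.1 on log2(FPKM + 1) and log2(FPKM + 0.1), voom with quality weights, and each mouse left out. Genes were located with GENCODE vM21 on GRCm38, which held 99.6% of the identifiers. Members, lists and tests were chosen with earlier results of these data known. The genes named were all members; up to 4 called genes per pathway list with the largest changes; the 2 largest of each marker list whose sums did not overlap; and the 3 genes most like each member. Slc39a1, Slc30a4, Saa1, the genes not called in a list and the enterocyte, hepatocyte and endothelial markers were named after their values were seen.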

Additional observations from a re-analysis of the deposited data

Results flagged for a closer look

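In 3 of 16 groups of 4 livers, 8 members in each genotype, a mouse stood far from its mates by Dixon's test at the 95% level, where chance flags about 1 in 20. Mt2 was 32.97 FPKM in control A468, with the next control at 10.45, and this gap was 0.886 of the range of the controls. Mt2 was 31.15 FPKM in Usp39-HKO mouse A469, with the next mate at 6.773 and a gap of 0.909 of the range. Mtf1 was 2.696 FPKM in control A472, with the next control at 2.209 and a gap of 0.937 of the range. Without A468 the log2 fold change of Mt2 was 0.21 (edgeR adjusted p = 0.86), and without A469 it was -1.66 (adjusted p = 0.031). Without A472 that of Mtf1 was 0.17 (adjusted p = 0.32), beside 0.09 with all mice.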

How the results depend on the processing

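The count of members lower in Usp39-HKO was 2, and it was 1 without TMM factors, 1 with limma on log2(FPKM + 1), 1 with limma on log2(FPKM + 0.1) and 4 with voom and quality weights. With each mouse left out in turn it ranged from 2 to 5, with 5 reached without Usp39-HKO mouse A469. The count of members higher was 0 in all 16 alternatives, although without TMM factors 3 members were higher at an unadjusted p under 0.05. The count of called genes in the pathway lists was 13 of 60 and became 20 with quality weights, with all 13 shared; with a mouse left out it ranged from 8 (without control A468, or without A471) to 22 (without A469, of which 10 were shared). Csrp1, Glul, Il6ra, Steap4 and Tsc22d3 were called in all 16 alternatives and Slc39a5 in all 15 that gave it a value. Mt2 turned to 0.2066 without control A468, gained a call without A469 (-1.656) and had no adjusted p from DESeq2. Slc30a10 kept an adjusted p under 0.05 in all 16 alternatives, with log2 fold changes of -1.13 to -0.66. Slc39a8 lost its call without TMM factors and in both limma fits on FPKM, at -0.19 to -0.16, and these scalings leave in the shift common to most genes. Slc39a14 gained a call without the filter (-0.51), with quality weights (-0.63) and without A469 (-0.73), and Mt1 with quality weights (-1.03) and without A469 (-1.24). Mtf1 has no value at a mean of at least 5 FPKM. Without TMM factors called genes were 3525 higher and 696 lower, beside 1561 and 1664. No paired analysis was possible because the labels give each mouse its own identifier and no number is shared between genotypes. Counts of 26 to 178 limit Mt2.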
